A study of Mus musculus with 4 samples.

Results

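The genes described here encode 9 proteins of transcription, RNA processing and single-stranded DNA binding: Supt5, Supt6, Exosc3, Exosc10, Rpa1, Rpa2, Ptbp2, Trim28 and Zfp318. Most of these genes have been tied to the targeting of AID, the cytidine deaminase that starts antibody class switching. They were chosen by platform gene symbol, which gave 21 of the 45037 probe sets tested. No probe set with several symbols held a member. RNA came from high switching subclones H23 and H27, labelled as switching spontaneously at high frequency in culture, and from low switching subclones L25 and L27. All 4 derive from the mouse hybridoma 36-65, a fusion of a B cell and a myeloma cell that secretes antibody, and were grown in the same medium with 10% fetal calf serum, with each measured on 1 array of total RNA.

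AID acts on single-stranded DNA at transcribed immunoglobulin genes. Spt5, the product of Supt5, binds paused RNA polymerase II and AID. The RNA exosome, which degrades RNA from its 3′ end, is thought to remove nascent transcripts so that the template strand is open to AID as well, and replication protein A (RPA) coats the exposed strand. The splicing regulator Ptbp2 and the corepressor Trim28 have each been found in complexes with AID in mouse B cells.

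None of the 9 genes passed the test for a difference between the switching classes. By limma's moderated test on log2 intensities, adjusted over all probe sets at 0.05, 0 of 21 member probe sets were higher and 0 were lower in high switching subclones, where 3.59% of all probe sets passed, 1.5% as higher and 2.10% as lower. The smallest limma adjusted p of a member was 0.139, on an Exosc10 probe set. At an unadjusted limma p under 0.05 there were 5 member probe sets (23.8%), against 18.6% of all probe sets: Exosc3, 2 of Exosc10 and 1 of Trim28 with lower values, and 1 of Ptbp2 with higher values. Differences (high minus low, log2) ran from -0.41 for Exosc3 to 1.06 for Ptbp2, with a median of -0.02, against a median of 0.01 over all probe sets. In total RNA of a culture, less RNA per cell and fewer cells that express a gene cannot be told apart.

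The intervals limit what could have been missed only where a probe set tracks its transcript, and they rest on 2 arrays in each class. For 20 of 21 probe sets the 95% interval of the difference lay within 2-fold in either direction, and for 17 it lay within 1.5-fold. The exception to the first was the brighter Ptbp2 probe set. The 20 include 6 probe sets with a mean under 7 (log2), where RMA may narrow the difference, so their intervals set no such limit. The arrays of the classes did not overlap on 6 member probe sets with lower (28.6%) and 4 with higher (19.0%) values in high switching subclones, and such separation was found for 22.2% and 25.1% of all probe sets. The nearest thing to a common direction was within the high switching pair: 17 of 21 member probe sets (81.0%) read lower in H27 than in H23, against 49.7% of all. Among probe sets averaging at least 7 (log2), these were 13 of 15 for the members and 54.9% of all. The 21 probe sets are not independent, since several read the same gene; by gene, 7 of 9 read lower in H27.

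**Figure D1:**
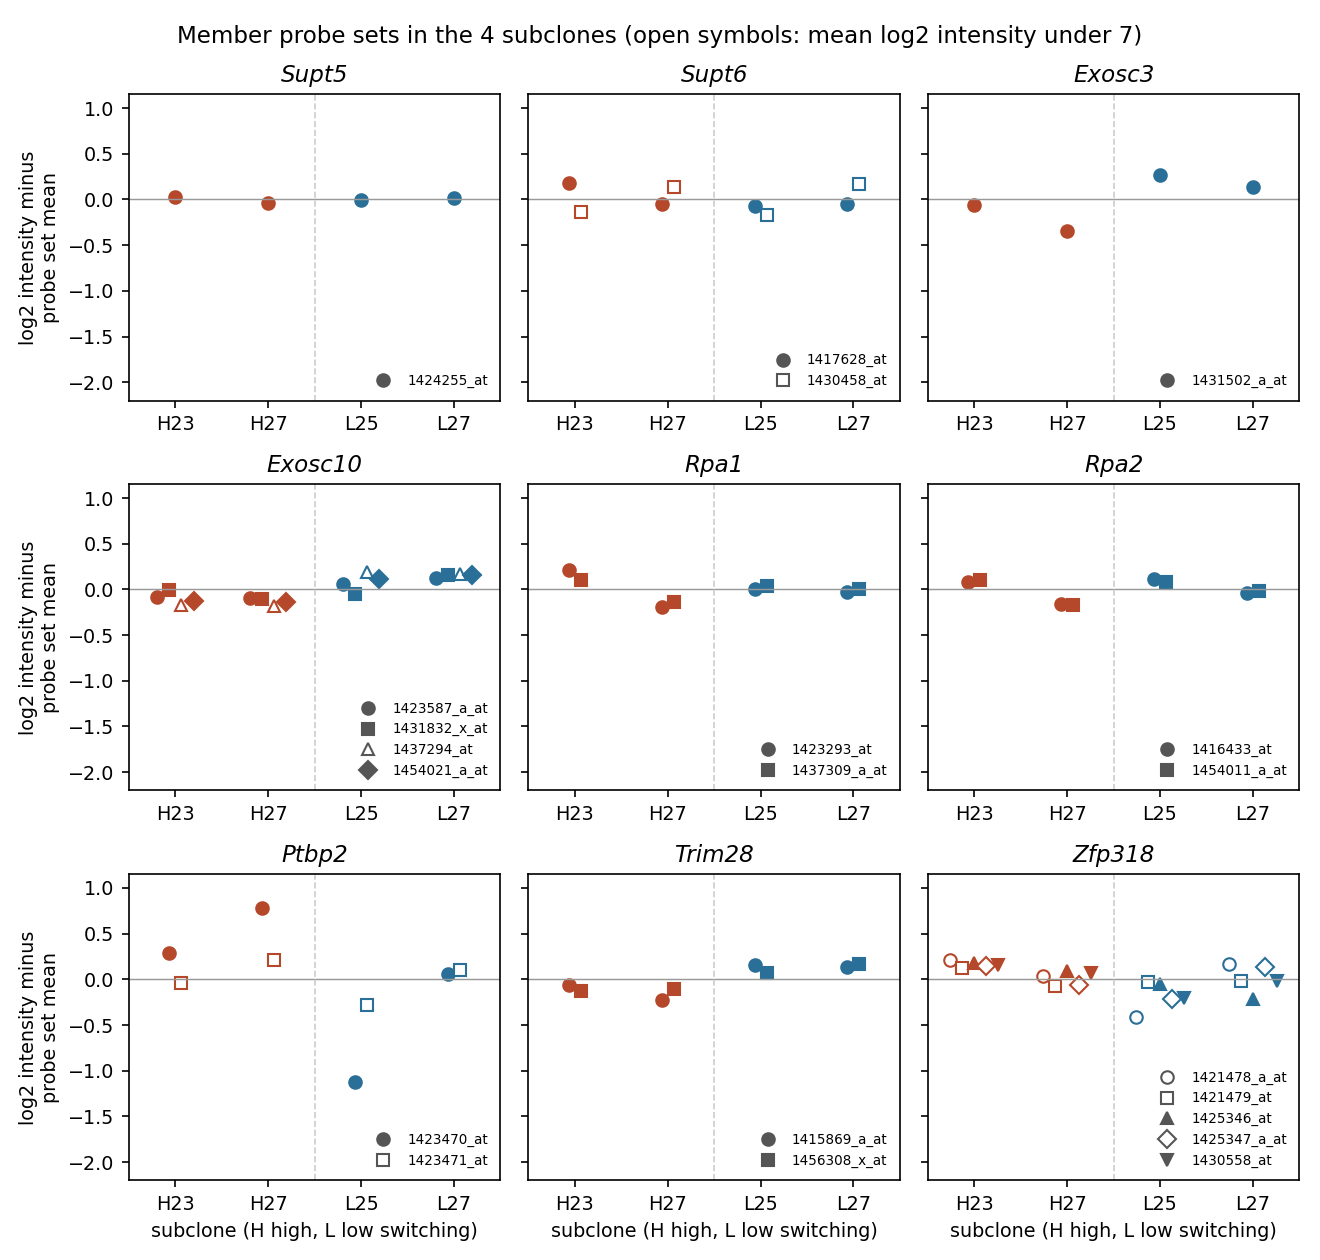
Log2 intensity of each member probe set on each array, as the deviation from that probe set's mean over the 4 arrays; high switching subclones (red) stand left of low switching subclones (blue), each symbol shape is 1 probe set, and open symbols mark a mean under 7. Exosc10, Exosc3 and Trim28 lie lower in H23 and H27 on most of their probe sets, Supt5 is level, and the Ptbp2 probe set with the higher mean ranges from 8.34 in L25 to 10.24 in H27.

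**Figure D2:**
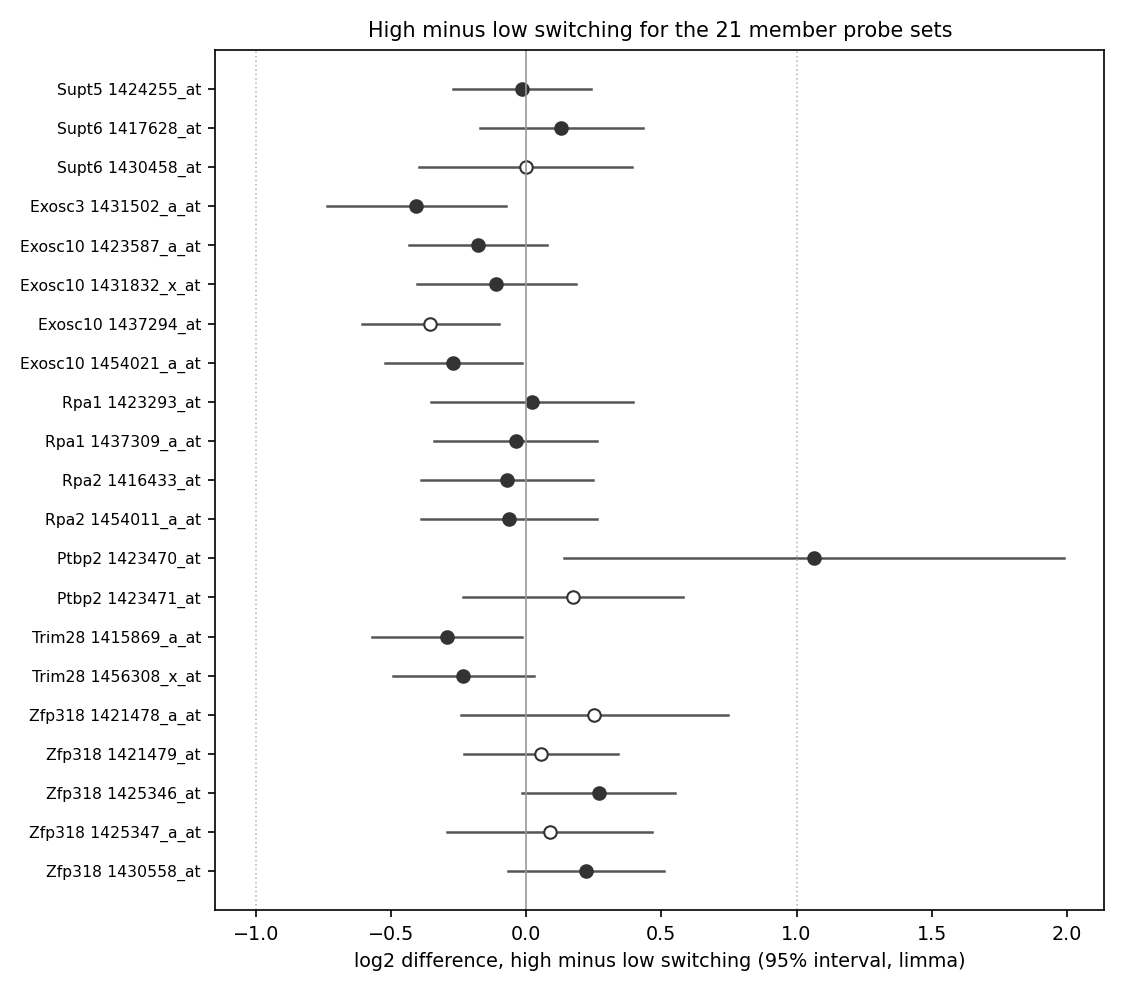
Log2 difference, high minus low switching, with its 95% interval from limma for each of the 21 member probe sets (n = 2 arrays in each class); open symbols mark a mean log2 intensity under 7 and dotted lines a 2-fold difference. Only the interval of Ptbp2 probe set 1423470_at, from 0.14 to 1.99, reaches past 2-fold.

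Supt5 was the most even of the genes. Its single probe set read 11.59 and 11.53 in H23 and H27, against 11.56 and 11.59 in L25 and L27 (log2 intensity). The low switching values lay between the high switching values. The difference was -0.02 ± 0.10 (SE), with an interval from -0.27 to 0.24, or 0.83-fold to 1.18-fold. Supt4a, the small partner that binds Spt5, was not analysed here.

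Supt6 encodes a histone chaperone that travels with RNA polymerase II. Its brighter probe set read 9.005 and 8.768 in H23 and H27, against 8.747 and 8.767 in L25 and L27. H23 stood above the other 3 subclones, which were nearly equal, and the gap between the classes was 0.001. The difference was 0.13 ± 0.12 (SE, interval -0.17 to 0.43). A second Supt6 probe set read 3.33 and 3.61 against 3.30 and 3.64 in the same order, under the median of each array, where the signal may no longer track transcript amount.

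Genes around Supt5 and Supt6 in elongation and pausing gave no call either. Of 23 measured partners, 0 were higher and 0 lower by limma's adjusted p, against 2.04% and 2.78% of the 18193 genes when the brightest probe set stands for each gene, and 7 had an unadjusted limma p under 0.05, a level reached by 22.9% of all genes. Their median difference was -0.11, with a range from -0.46 to 0.45, against a median of 0.01 over all genes. The largest differences were those of Nelfa, a subunit of the pausing factor NELF, which averaged 10.56 in high switching and 11.02 in low switching subclones (limma adjusted p = 0.169), and of the elongation factor Ell, which averaged 8.04 against 7.59 (limma adjusted p = 0.124). Neither passed the threshold.

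Exosc3 encodes a cap subunit of the RNA exosome that helps to guide RNA into the complex. Its single probe set read 9.62 and 9.34 in H23 and H27, against 9.95 and 9.82 in L25 and L27. Both high switching subclones lay below both low switching subclones, by 0.20 at the nearest. The means were 9.48 ± 0.20 in high switching and 9.89 ± 0.09 in low switching subclones (SD, n = 2 each), a difference of -0.41 ± 0.14 (SE), or 0.75-fold with an interval from 0.60-fold to 0.95-fold, and the limma adjusted p was 0.182. The difference was -0.27 without H27, so its size rests in part on that subclone.

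Exosc10 encodes the nuclear nuclease of the exosome, also called RRP6, and had 4 probe sets. Its probe set 1437294_at read 6.59 and 6.57 in H23 and H27, against 6.94 and 6.92 in L25 and L27, and 1454021_a_at read 10.59 and 10.57 against 10.83 and 10.87. Within each class the arrays differed by no more than 0.04 on both probe sets, and the gap between classes was 0.34 and 0.24. The differences were -0.35 ± 0.10 (SE, limma adjusted p = 0.139) and -0.27 ± 0.10 (SE, limma adjusted p = 0.240). The other probe sets gave -0.18 and -0.11, and on the last of these, 1431832_x_at, the classes overlapped. All 4 differences were thus negative, from 0.78-fold to 0.93-fold, but none passed the test. When any array was left out, the difference of 1437294_at, whose mean of 6.75 is under 7, stayed between -0.36 and -0.34. The range was -0.29 to -0.25 for 1454021_a_at and -0.21 to -0.14 for 1423587_a_at. For 1431832_x_at it was wider, from -0.21 to -0.0087.

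The other subunits of the exosome did not share a direction. Exosc2, Exosc5, Exosc6 and Exosc7 had differences of -0.30, -0.20, -0.18 and -0.28, and in each the high switching arrays lay below the low switching arrays. Exosc1, Exosc8 and Exosc9 lay higher without overlap, with differences of 0.26, 0.46 and 0.20, and Exosc4 was level at 0.02. Such separation is common with 2 arrays in each class: 22.2% of all probe sets lay lower and 25.1% higher without overlap. The Exosc6 readings were under the median of each array. Of the 17 measured genes of the exosome and its cofactors other than the members, 0 were higher and 0 lower by limma's adjusted p, with a median difference of -0.06, and 2 had an unadjusted limma p under 0.05: Exosc8, which averaged 11.21 in high switching and 10.75 in low switching subclones (limma adjusted p = 0.145), and the cofactor gene C1d, which averaged 10.99 against 10.61 (limma adjusted p = 0.169). Other probe sets of Exosc2 and C1d had differences of the opposite sign (0.07 and -0.01). Over all genes 2.04% were higher and 2.78% lower by limma's adjusted p, and 22.9% had an unadjusted limma p under 0.05.

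**Figure D3:**
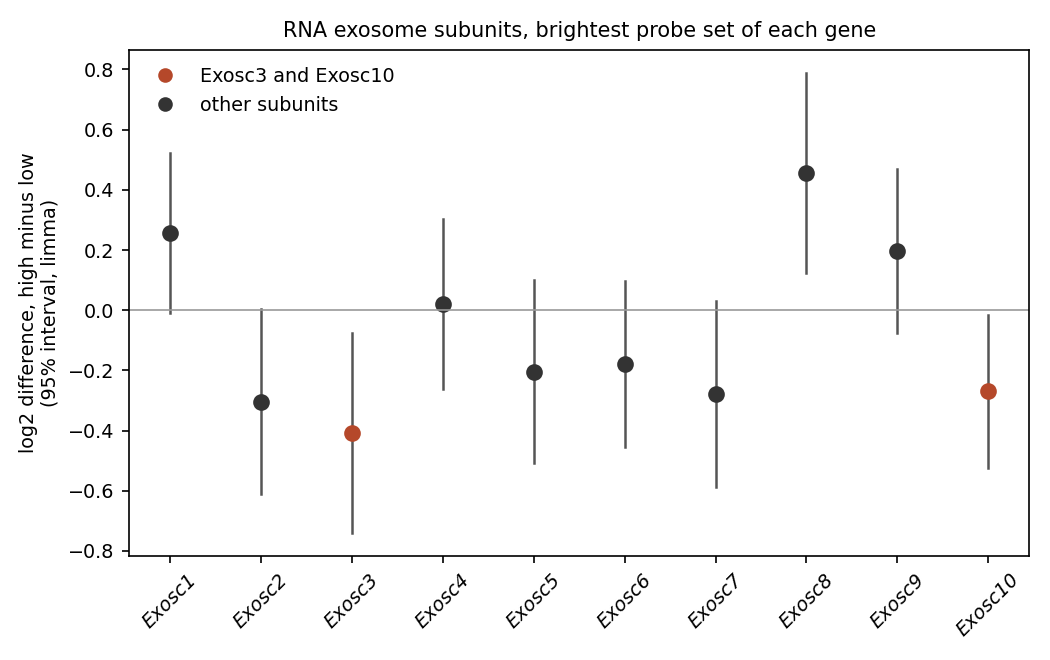
Log2 difference, high minus low switching, with its 95% interval from limma, for the brightest probe set of each exosome subunit gene (n = 2 arrays in each class; red marks Exosc3 and Exosc10). Differences run from -0.41 for Exosc3 to 0.46 for Exosc8 and lie on both sides of 0.

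Rpa1 and Rpa2 encode the large and middle subunits of RPA, the trimer that binds single-stranded DNA in replication, repair and switching. The probe set 1423293_at of Rpa1 read 11.76 and 11.37 in H23 and H27, against 11.56 and 11.53 in L25 and L27. Its probe set 1437309_a_at read 12.98 and 12.74 against 12.92 and 12.88 in the same order. In both, H23 was the highest subclone and H27 the lowest, with the low switching subclones between them. The differences between the classes were 0.02 ± 0.15 (SE, interval -0.35 to 0.39) and -0.04 ± 0.12 (SE, interval -0.34 to 0.26).

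Rpa2 showed the same spread inside the high switching class. Its probe sets read 10.70 and 10.46 in H23 and H27, against 10.73 and 10.58 in L25 and L27, and 10.74 and 10.47 against 10.72 and 10.62. H27 was the lowest subclone on both, and the other values overlapped. The differences between the classes were -0.07 ± 0.13 (SE, interval -0.39 to 0.25) and -0.06 ± 0.13 (SE, interval -0.39 to 0.26). Rpa3, the small subunit, read 12.16 and 12.01 against 12.00 and 12.13, with a difference of 0.02.

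H27 also read below H23 on all 12 genes of a replication list, with a median of -0.39 for H27 minus H23. The list holds the Mcm2 to Mcm7 helicase, Pcna and the Rfc1 to Rfc5 clamp loader. Over all probe sets 49.7% read lower in H27 than in H23, and 54.9% of those averaging at least 7 (log2). L27 read below L25 on 9 of the 12, with a median of -0.08. For Rpa1 and Rpa2 the drop within the high switching pair was 0.24 to 0.39 on the log2 scale. The summed intensity of the 12 genes was 15.31 and 14.94 in H23 and H27, against 15.55 and 15.46 in L25 and L27 (log2). In the comparison of classes 2 of the 12 fell by limma's adjusted p, Rfc1 (-0.76) and Rfc3 (-1.07), and 0 rose. Over all genes 2.78% were lower and 2.04% higher. All 12 averaged at least 7, and with only probe sets at that level fitted, 1038 of 14489 were lower and 757 higher. The median difference of the 12 was -0.48, and 8 had an unadjusted limma p under 0.05, against 22.9% of all genes. By the brightest probe set of each gene, 9 of the 12 were lower and 0 higher in high switching subclones without overlap. Over all probe sets, most of them dimmer than these, the shares were 22.2% and 25.1%. No such share was taken by gene or at a matched level. The Rfc1 call was lost when any 1 array was left out, and the Rfc3 call without H27, L25 or L27, so that 1 of the 12 was lower without H23 and 0 without each of the others; both were lost with a minimum fold of 1.5 or with a block for the hybridization control level. The part of replication gene levels in the RPA readings was not tested.

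Of 9 measured partners of RPA on single-stranded DNA, 0 were higher and 0 lower by limma's adjusted p. Over all genes 2.04% were higher and 2.78% lower. An unadjusted limma p under 0.05 was reached by 2 of the 9, against 22.9% of all genes. The median difference of the 9 was -0.23. The largest were in Etaa1, an activator of the checkpoint kinase ATR that binds RPA, which averaged 8.32 in high switching and 8.88 in low switching subclones (limma adjusted p = 0.131), and in the annealing helicase gene Smarcal1, which averaged 9.21 against 9.59 (limma adjusted p = 0.121). Another probe set of Smarcal1 had a difference of the opposite sign (0.06).

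**Figure D4:**
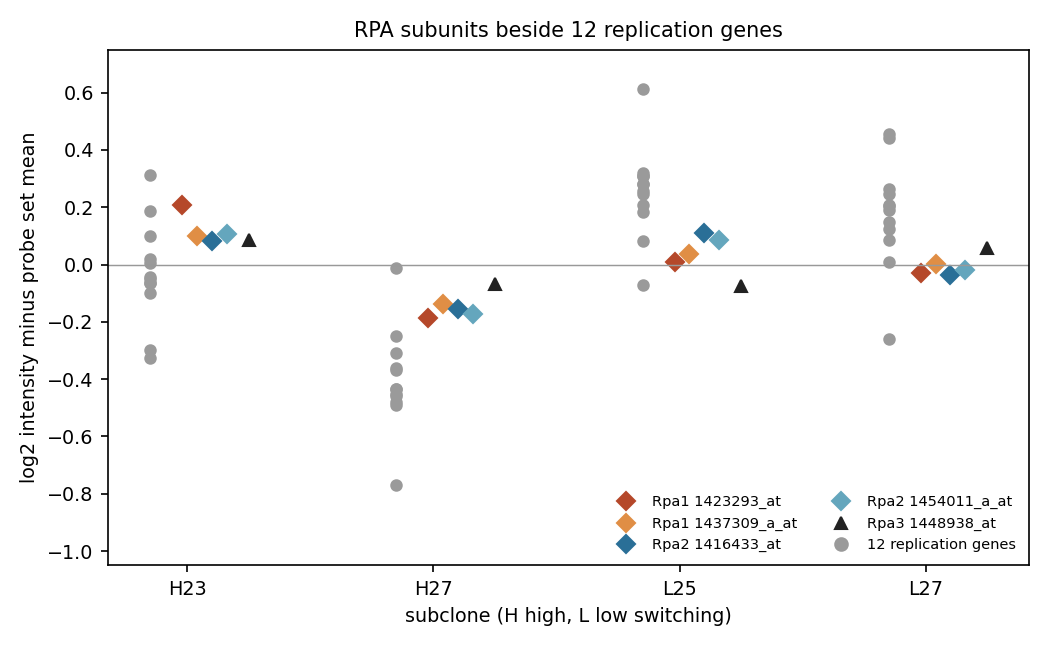
Log2 intensity on each array as the deviation from the probe set's mean over the 4 arrays, for the probe sets of Rpa1 and Rpa2 (diamonds), Rpa3 (triangles) and the 12 replication genes (grey); high switching subclones stand left of low switching subclones. All 4 Rpa1 and Rpa2 probe sets are lowest in H27, where the replication genes are lower than in H23 as well.

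Ptbp2, the neuronal paralog of the polypyrimidine tract binding protein, had the largest difference of the 9 genes and the largest spread. Its probe set 1423470_at read 9.74 and 10.24 in H23 and H27, against 8.34 and 9.51 in L25 and L27. The classes did not overlap, but L27 lay within 0.23 of H23, while L25 lay far below all the others. The means were 9.99 ± 0.35 in high switching and 8.92 ± 0.83 in low switching subclones (SD, n = 2 each), a difference of 1.06 ± 0.38 (SE), or 2.09-fold with an interval from 1.10-fold to 3.97-fold, and the limma adjusted p was 0.207. The low switching subclones differed from each other by 2.25-fold, a difference in size reached by 23 of the 14489 probe sets with a mean of at least 7.

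Leaving out L25 lowered the Ptbp2 difference to 0.48 (limma adjusted p = 0.492), and leaving out L27 brought it to 1.65 (limma adjusted p = 0.0554); the lone low switching subclone is then assumed to vary like the other pair. A second probe set, 1423471_at, read 4.43 and 4.69 against 4.20 and 4.58 in the same order, under the median of each array. Its subclones followed the same order within each class, with overlap between the classes. The paralogs Ptbp1 and Ptbp3 had differences of 0.09 and -0.03, their classes overlapped, and each had a probe set with a difference of the opposite sign (-0.01 for Ptbp1 and 0.27 for Ptbp3). Ptbp2 lies on chromosome 3, and the median difference of its 40 neighbouring genes was 0.15, with 1 called higher and 2 called lower.

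The genes with the most similar pattern over the 4 arrays, by Euclidean distance between log2 values centred on each probe set's mean among 13345 named probe sets with a mean of at least 7, were 4932438A13Rik on chromosome 3 (distance 0.222), Rab4a on chromosome 8 (0.266) and Suox on chromosome 10 (0.271). Like Ptbp2, each was lowest in L25 and highest in H27. With 4 arrays, such a shared order follows from the choice by distance. How many other profiles lie nearly as close was not counted.

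Other splicing and RNA-binding proteins gave no call on the brightest probe set of a gene. Of 18 measured, 0 were higher and 0 lower by limma's adjusted p, against 2.04% and 2.78% of all genes. An unadjusted limma p under 0.05 was reached by 2, against 22.9% of all genes, and the median difference of the 18 was 0.06. The largest differences were in Hnrnpd, which encodes the RNA-binding protein AUF1, which averaged 10.39 in high switching and 11.07 in low switching subclones (limma adjusted p = 0.0714), and in Ctnnbl1, a spliceosome-associated protein reported to bind AID, which averaged 10.65 against 11.08 (limma adjusted p = 0.150). For Srsf1, a splicing factor named after its values were seen, 1 of 7 probe sets passed as lower (-0.77, limma adjusted p = 0.0364). Its brightest had a difference of -0.10, and all 7 were negative. In all, 1 of the 68 probe sets of this list passed, against 3.59% of all probe sets.

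Among factors that act on DNA-RNA hybrids, 2 of 18 measured genes fell and 0 rose in high switching subclones. These calls used the brightest probe set, adjusted over all probe sets, where 2.78% of all genes were lower and 2.04% higher. All 18 averaged at least 7 (log2). With only probe sets at that level fitted, 1038 of 14489 were lower and 757 higher, and the 2 falls remained. Rnaseh1, the nuclease that cuts RNA paired to DNA, read 8.47 and 8.36 in H23 and H27, against 9.39 and 9.09 in L25 and L27, a difference of -0.83 ± 0.14 (SE, limma adjusted p = 0.0364). Ddx1, an RNA helicase reported to act on switch transcripts, read 11.41 and 11.42 against 12.04 and 12.07, a difference of -0.64 ± 0.10 (SE, limma adjusted p = 0.0334).

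The high switching arrays were lower without overlap for both genes. The median of the 18 genes was 0.02, so the group as a whole did not lie lower, and Rnaseh2a, Rnaseh2b and Rnaseh2c, the subunits of the other RNase H, had differences of 0.01, 0.03 and -0.18. Neither call survived the loss of any 1 array (limma adjusted p from 0.0621 to 0.156 for Rnaseh1 and from 0.108 to 0.152 for Ddx1), and neither passed with a block for the hybridization control level (0.123 and 0.109). A second Ddx1 probe set had a difference of -0.51 and did not pass.

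Trim28, also called KAP1, is a corepressor that brings HP1 proteins and the histone methyltransferase Setdb1 to chromatin. Its probe set 1415869_a_at read 11.44 and 11.28 in H23 and H27, against 11.66 and 11.64 in L25 and L27. Its probe set 1456308_x_at read 12.04 and 12.08 against 12.25 and 12.34 in the same order. Both high switching subclones lay below both low switching subclones on each. The differences were -0.29 ± 0.11 (SE, interval -0.57 to -0.02, limma adjusted p = 0.242) and -0.23 ± 0.11 (SE, interval -0.49 to 0.03, limma adjusted p = 0.323), or 0.82-fold and 0.85-fold.

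Of 13 measured partners of Trim28 and HP1, 0 were higher and 0 lower by limma's adjusted p, against 2.04% and 2.78% of all genes. An unadjusted limma p under 0.05 was reached by 3, against 22.9% of all genes, and the median difference of the 13 was -0.07. The largest differences were in Trim33, a relative of Trim28, which averaged 10.52 in high switching and 10.10 in low switching subclones (limma adjusted p = 0.159), and in Setdb1, which averaged 9.84 against 9.49 (limma adjusted p = 0.232). Each of these genes had a probe set with a difference of the opposite sign (-0.01 for Trim33 and -0.18 for Setdb1).

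Zfp318 encodes a zinc finger protein that mature mouse B cells need to make IgD transcripts. Its probe set 1430558_at read 7.69 and 7.61 in H23 and H27, against 7.34 and 7.52 in L25 and L27, and 1425346_at read 7.35 and 7.27 against 7.13 and 6.96. The high switching subclones were higher without overlap on both. The differences were 0.22 ± 0.12 (SE, interval -0.07 to 0.51, limma adjusted p = 0.398) and 0.27 ± 0.12 (SE, interval -0.01 to 0.55, limma adjusted p = 0.293). The other 3 probe sets gave 0.25, 0.05 and 0.09 with overlapping classes, and 2 of them lay under the median of each array.

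Of 11 genes that end or splice heavy chain transcripts, 0 were higher and 0 lower by the brightest probe set and limma's p adjusted over all 45037 probe sets. Over all genes 2.04% were called higher and 2.78% lower. An unadjusted limma p under 0.05 was reached by 6, against 22.9% of all genes, and the median difference was -0.08. Ttf2, a termination factor of RNA polymerase II, averaged 9.19 in high switching and 8.83 in low switching subclones (limma adjusted p = 0.345). The polyadenylation factor gene Cpsf4 had 8.97 against 9.68 (limma adjusted p = 0.0541) and was called lower when p was adjusted over 1 probe set for each gene, and Cpsf2 had 8.54 against 8.07 (limma adjusted p = 0.151), with 1 of its 3 probe sets past the threshold as higher (0.80). A probe set of Hnrnpll, which encodes a regulator of splicing in lymphocytes and was named after its values were seen, passed as lower (-0.79, limma adjusted p = 0.0254) and was not the brightest of its gene. In all, 2 of the 24 probe sets of this list passed, against 3.59% of all probe sets.

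The promoter windows of the genes with the largest differences on their brightest probe sets, Ptbp2, Exosc3 and Exosc10, are given so that the genes can be placed; no measurement here bears on promoter activity. Each runs from 250 bases before to 50 after a RefSeq transcript start on GRCm38.p6, 5′ to 3′ on the strand of the gene. Capitals mark the GC box GGGCGG and the CCAAT box on either strand, with overlapping matches counted separately. Ptbp2 lies at chr3:119783339-119783638 on the minus strand, Exosc3 at chr4:45320567-45320866 on the minus strand, and Exosc10 at chr4:148558169-148558468 on the plus strand.
Ptbp2: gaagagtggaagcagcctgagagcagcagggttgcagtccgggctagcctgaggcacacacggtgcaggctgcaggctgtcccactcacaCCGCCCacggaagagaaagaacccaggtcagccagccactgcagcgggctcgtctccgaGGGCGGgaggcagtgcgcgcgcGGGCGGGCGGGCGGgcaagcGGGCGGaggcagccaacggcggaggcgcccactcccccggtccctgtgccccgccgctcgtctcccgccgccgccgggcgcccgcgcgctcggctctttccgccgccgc
Exosc3: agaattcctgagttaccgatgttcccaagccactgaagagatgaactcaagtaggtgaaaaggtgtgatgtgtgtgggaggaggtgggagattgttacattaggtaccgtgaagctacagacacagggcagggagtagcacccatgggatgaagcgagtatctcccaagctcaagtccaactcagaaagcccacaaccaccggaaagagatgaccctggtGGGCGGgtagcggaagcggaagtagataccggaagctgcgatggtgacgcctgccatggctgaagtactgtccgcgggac
Exosc10: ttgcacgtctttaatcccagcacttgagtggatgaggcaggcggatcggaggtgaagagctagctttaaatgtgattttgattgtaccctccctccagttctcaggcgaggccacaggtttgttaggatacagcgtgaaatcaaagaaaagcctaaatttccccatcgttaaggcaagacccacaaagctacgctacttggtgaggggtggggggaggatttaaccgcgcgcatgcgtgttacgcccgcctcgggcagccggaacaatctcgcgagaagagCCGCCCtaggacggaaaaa

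The Ptbp2 window held 6 GC boxes and a GC content of 74.7%, the Exosc3 window 1 and 54.0%, and the Exosc10 window 1 and 53.0%. All 9 genes had a window, and Exosc10 had a second, not shown, with 0 GC boxes and a GC content of 70.0%. This gave 10 windows. A GC box was found in 7 of these and in 35.7% of all 32851 windows, a CCAAT box in 2 (Rpa1 and Rpa2) and in 37.4%, the TATA box TATAAA in 0 and in 13.6%, and the E-box CACGTG in 1 (Rpa1) and in 7.15%. The GC content ran from 50.7% to 80.0%, against a median of 52.7%, and the observed over expected CpG ratio from 0.57 to 1.03, against a median of 0.38. A match is a description of the letters and not of a bound site.

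The median difference of the 40 neighbouring genes of a member ran from -0.12 for Exosc3 to 0.15 for Ptbp2. With that median subtracted, Exosc3 had a difference of -0.29 and Exosc10 (1437294_at) of -0.39, and 0 of 21 member probe sets passed.

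Marker genes of plasma cells were bright in all 4 subclones, with a median level of 12.78 over 8 genes. By limma's adjusted p, Xbp1 (-0.71) and Tnfrsf17 (-0.71) fell and 0 rose, where 2.78% of all genes were lower and 2.04% higher. The 8 differences had a median of -0.01 and reached 0.74, with 4 negative and 4 positive. The median level was 6.10 for 6 T cell, 4.80 for 7 myeloid, 4.88 for 6 fibroblast and 5.08 for 4 erythroid markers, and of these Itgam fell (-1.38) and Lum rose (1.21). The calls of Xbp1 and Tnfrsf17 ended when any 1 array was left out, and those of Itgam and Lum without L25 or L27, for Lum also without H23. The median intensity was 38.1 to 39.3 on the 4 arrays, and with 2 arrays in each class an exact permutation test cannot give a two-sided p below 0.333. The labels do not say whether the subclones of a class arose separately, so p-values measure the spread between these 4 subclones alone.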

How the data were processed

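Per the labels' protocols, total RNA of 4 subclones was labelled with biotin and hybridized to 1 expression array each. The authors deposited linear-scale intensities made with RMA per the submitters' processing notes; RMA narrows differences of dim probe sets. No genome build is stated for them in the sources used here. Values were put on the log2 scale. Of 45101 probe sets, 64 controls were left out. The platform annotation of 2016 named 34945 with 1 symbol, and 34737 of these were placed on a chromosome through a gene table of GRCm38.p6.

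High minus low switching was fitted across all 45037 probe sets with limma 3.58.1 in R 4.3.3 (lmFit, eBayes, two-sided, Benjamini-Hochberg adjustment, threshold 0.05, no filter on level). The SE is limma's moderated standard error and intervals cover 95%. At the gene level, the brightest probe set by mean represented each gene. Named genes were all members, up to 4 called genes of each list or otherwise the 2 with the largest difference, and a fixed set of exosome, RPA and Ptbp partners with Ttf2; gene values named beyond this rule are Rnaseh2a, Rnaseh2b, Rnaseh2c, Srsf1 and Hnrnpll. The members and lists were chosen with earlier results of these data known. Some genes of the lists are not reported here. The fit was also run on simulated data with independent noise drawn from limma's own variance model. Such data cannot test shared array effects or divergence between subclones, and the outcome is not reported here. Promoters were read from RefSeq windows. Tables and figures used Python 3.11.15 with numpy 2.4.6, pandas 2.3.3 and matplotlib 3.10.9.

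The alternatives tried were an intensity trend in the variance (plain or robust), a mean of at least 7 or above the median probe set, quantile and cyclic loess normalization, leaving out probe sets named _x_at, _s_at or _a_at, a minimum fold of 1.5, gene-level adjustment, the hybridization control level as a block, subtraction of a local median (20 genes on either side), and leaving out each array.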

Additional observations from a re-analysis of the deposited data

How the results depend on the processing

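Under all 15 alternatives, 0 of the member probe sets fitted were higher and 0 lower by limma, and the smallest adjusted p of a member over them was 0.0554 (Ptbp2 without low switching replicate 2, subclone L27). Differences near 0 changed sign: Supt5 was 0.0089 after quantile normalization, 0.0169 after cyclic loess and 0.0325 with neighbouring genes subtracted, and the dim Supt6 probe set was 0.0019 after quantile normalization and 0.0533 with neighbours subtracted. When single arrays were left out, ranges that crossed 0 were -0.0452 to 0.0142 for Supt5, -0.17 to 0.17 for the dim Supt6 probe set, -0.18 to 0.22 and -0.16 to 0.079 for Rpa1, -0.19 to 0.0466 and -0.20 to 0.0741 for Rpa2, -0.0165 to 0.36 for the dim Ptbp2 probe set, and -0.0371 to 0.54, -0.0432 to 0.15 and -0.0886 to 0.26 for the dim Zfp318 probe sets. The direction of these probe sets is therefore not settled, and the cause was not tested. Exosc3, Exosc10, Trim28, the brighter Ptbp2 probe set and the brighter Zfp318 probe sets kept their sign throughout.

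Over all probe sets, 674 higher and 944 lower became 59 and 104 with a minimum fold of 1.5, and 58 and 94 with the hybridization controls as a block, which leaves fewer degrees of freedom. Leaving out 1 array gave 196 and 304 without H23, 253 and 329 without H27, 112 and 196 without L25, and 220 and 272 without L27, so the share of all probe sets called depends on having all 4 arrays. With neighbours subtracted, 430 were higher, over fewer probe sets. The 2 falls among hybrid factors were 1 without probe sets named _x_at, _s_at or _a_at, where the Rnaseh1 probe set was not fitted. They were 1 with neighbours subtracted, where Rnaseh1 did not pass, and 0 with the minimum fold, the block or any array left out. The 2 falls among replication genes were 0 with the minimum fold, the block or without H27, L25 or L27, and 1 without H23. In the heavy chain mRNA list Cpsf4 was called as lower with either filter, cyclic loess or gene-level adjustment, and Hnrnpd of the splicing list was called as lower with a mean of at least 7. No paired analysis was possible because the replicate numbers only follow the order of the samples. Signal near background limits the 4 member probe sets that lie under the median of each array.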
